A study of Rattus norvegicus with 6 samples.

Results

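MRAK transcripts are the long non-coding RNAs that the array design names with the prefix MRAK and a 6-digit number, and they were compared between islets of young and ageing rats. All non-control probes whose systematic name starts with MRAK were taken, which gave 3588 probes of 24684 on the array, 1 probe for each name and 3 spots for each probe. After the filter on dim probes 2103 of them could be tested, among 17941 tested probes in all. RefSeq mRNA probes, whose names start with NM_, served as the comparison, with 12286 of 15321 tested. The 15321 mRNA probes had 15663 spots, so most had 1 spot each. The RNA came from islets of the pancreas of male rats of the Wistar strain, 3 or 12 months old, with 3 arrays of each age from 3 rats of each age, and the labels name no treatment. Islets are the small clusters of hormone-secreting cells in the pancreas, and they were freed by collagenase digestion before total RNA was labelled with the dye Cy3.

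Long non-coding RNAs are transcripts with no protein product. Many are spliced and polyadenylated like messenger RNAs, but they are usually less abundant and more restricted to a tissue. Some act in the nucleus on genes close to their own, others hold proteins together in complexes, and several are linked to the identity and hormone secretion of beta cells. The arrays carry no annotation of the MRAK transcripts beyond the name, and 0 of the 3588 names matched the RefSeq gene table used here. Their non-coding status therefore rests on the array design, and neither the neighbouring genes, the genomic positions nor the functions of single MRAK transcripts are given. Their sequences and those of the probes were not used here.

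The age groups differed in technical measures that touch every result. Young and old arrays were scanned separately, and the scan cannot be told apart from age. The median signal of the negative control spots was 90.5 ± 0.866 scanner units at 12 months and 30.2 ± 0.764 at 3 months (SD, n = 3 each). Over the tested MRAK probes the normalized profiles correlated at 0.949 to 0.976 within an age and at 0.861 to 0.941 across ages. These are correlations across probes, which are not independent replicates. In whole islets, fewer cells of a type and less RNA per cell cannot be told apart.

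Fewer MRAK transcripts were detected at 12 months than at 3 months. On the 3-month arrays 59.7%, 63.4% and 64.9% of the MRAK probes were well above background, and on the 12-month arrays 47.7%, 43.1% and 40.5%. The lowest young array stood above the highest old one. The RefSeq mRNA probes showed the same order at a higher level, with 82.4% ± 2.07 at 3 months and 71.2% ± 2.54 at 12 months (SD, n = 3 each).

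**Figure D1:**
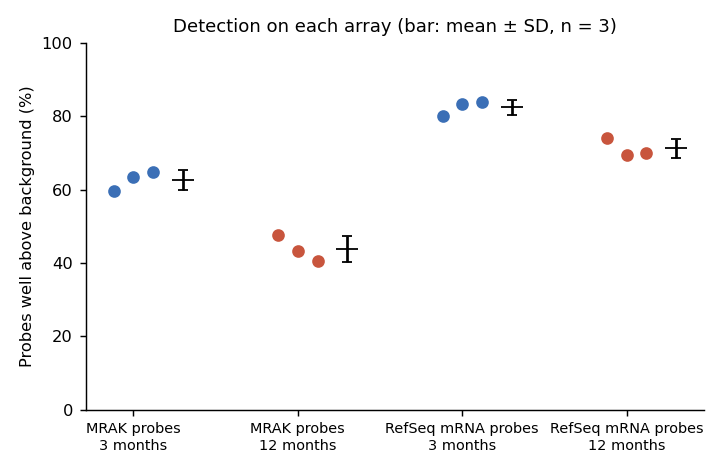
Share of probes well above background on each array (y axis, percent; points are arrays) for MRAK probes and RefSeq mRNA probes at 3 and 12 months. The 3-month arrays lie between 59.7% and 64.9% for MRAK probes and the 12-month arrays between 40.5% and 47.7%.

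Taken probe by probe, 1339 MRAK transcripts (37.3%) were above background on all 6 arrays and 1101 (30.7%) on none. The patterns confined to an age were unequal. All the 3-month arrays but no 12-month array detected 365 transcripts (10.2%), whereas 4 (0.111%) were detected on all the 12-month arrays and no 3-month array. The lowest log2 signal that counted as well above background was 4.26 to 5.13 on the 12-month arrays and 2.89 to 3.17 on the 3-month arrays, so a dim transcript could be detected at 3 months at a signal that lay below the limit at 12 months. The part of this limit in the difference in detection was not tested.

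The filter asked for detection on 3 or more of the 6 arrays, and it removed 1485 MRAK probes (41.4%). The members just inside it, on exactly 3 arrays, numbered 398, with a median of 4.37 for their mean log2 signal over 6 arrays (range 2.96 to 5.94). Those just outside, on exactly 2 arrays, numbered 189, with a median of 3.65 (range 2.71 to 5.25). Of the probes on exactly 3 arrays, 365 entered through the 3-month arrays alone, so they had to be brighter at 3 months relative to each array's limit and give no independent evidence of direction.

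Tested MRAK transcripts were mostly dim. Their median log2 signal over 6 arrays was 7.01 (range 2.96 to 16.43), against 9.42 for RefSeq mRNA probes. A mean signal of 14 or more was reached by 20 MRAK probes (0.951%) and by 647 RefSeq mRNA probes (5.27%). A probe's signal also depends on how well it binds, so the levels of different probes are not amounts of transcript.

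The 5 brightest MRAK transcripts did not separate the ages. MRAK137935, the brightest, had log2 signals of 17.12, 16.30 and 16.29 at 3 months and 15.93, 16.34 and 16.58 at 12 months, a difference of -0.29 (adjusted p = 0.56, limma). MRAK015982 had 15.85, 15.85 and 17.47 at 3 months and 15.58, 16.22 and 16.03 at 12 months, with a difference of -0.44 (adjusted p = 0.544, limma). In both transcripts 1 young array was well above the other two and the ages overlapped. MRAK011429 had 16.29, 16.35 and 16.38 at 3 months and 15.57, 16.41 and 15.55 at 12 months, a difference of -0.50 (adjusted p = 0.285, limma). MRAK078618 and MRAK147435 differed by 0.25 and 0.15 (adjusted p = 0.544 and 0.777, limma), and the ages overlapped in each. The sign of the difference in MRAK015982, MRAK078618 and MRAK147435 changed under some of the other settings.

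Spots of a probe on the same array agreed far more closely than arrays of the same age. Over the 1339 MRAK probes above background on all arrays, the median SD among the spots of a probe was between 0.0997 and 0.139 log2 units on the 6 arrays. The median SD between arrays was 0.4 at 3 months and 0.346 at 12 months, and the median size of the age difference was 0.579. The typical age difference was thus less than double the spread between arrays of an age. A range wider than 2 log2 units within an age occurred in 99 transcripts (7.39%), in 74 of them at 3 months and in 25 at 12 months. In 40 of the 74 the array farthest out was 3-month replicate 3.

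The most variable transcripts, chosen after their values were seen, show what this spread means for a single name. MRAK005500 had log2 signals of 4.94, 8.84 and 6.31 at 3 months and 8.85, 9.03 and 9.70 at 12 months. Its difference of 2.50 did not pass the test (adjusted p = 0.121, limma), since 1 young array almost reached the old ones. MRAK042985 varied in the other age, with 11.04, 10.63 and 11.33 at 3 months and 10.62, 11.93 and 8.46 at 12 months (difference -0.67, adjusted p = 0.589, limma).

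The comparison of 12-month with 3-month islets asks which of these transcripts differ with age. With limma and a Benjamini-Hochberg adjusted p under 0.05 over all tested probes, 184 of 2103 MRAK transcripts (8.75%) differed, 127 higher and 57 lower at 12 months. The same share over all tested probes was 8.37%, with 5.32% higher and 3.05% lower, so MRAK transcripts were called about as often as the array as a whole. The higher transcripts differed by 0.96 to 6.17 on the log2 scale, with a median of 2.08, and the lower ones fell by 0.99 to 3.43, with a median of 1.58. The study's own threshold was a nominal p under 0.05 together with a fold above 2. With p-values from limma it was passed by 524 MRAK transcripts (24.9%), against 22.0% of all tested probes. With 1 array left out the MRAK share was 19.1% to 29.3%, and that of all tested probes was 17.4% to 27.2%. With limma the split at this threshold ran the other way, with 226 higher and 298 lower, against 10.1% and 11.9% of all tested probes. With p-values from the unpaired test of the study's methods instead, 357 passed (17%, against 15.2% of all tested probes), 190 higher and 167 lower. With the paired test of its supplement 191 passed (9.08%, against 8.66% of all tested probes), 135 higher and 56 lower. The direction of the split at the study's threshold thus depended on the test.

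The adjusted count rested on a few arrays, and the share over all tested probes moved with it. Without 12-month replicate 1 the count was 27, and without 12-month replicate 3 it was 40. Without 3-month replicate 1 it was 41, and without 3-month replicate 3 it was 57. These were 1.28%, 1.9%, 1.95% and 2.71% of MRAK transcripts, against 1.16%, 1.61%, 1.8% and 2.56% of all tested probes. Without 3-month replicate 2 the count was 130 (6.18%, against 5.84% of all tested probes). Without 12-month replicate 2 it was 247 (11.7%, against 12.1%). From 4 arrays with the same ending in their names, 2 of each age, limma called 0 probes of any kind at an adjusted p under 0.05. At an unadjusted p under 0.05 it called 408 MRAK transcripts, and at the study's threshold 358 (17%, against 14.5% of all tested probes). The split between higher and lower calls also depended on the scaling and on single arrays. When arrays were aligned at their 75th percentile instead, 46.6% of the adjusted calls and 24.5% of those at the study's threshold were higher at 12 months, against 69.0% and 43.1% with quantile normalization. Without 12-month replicate 2 the adjusted calls were 104 higher and 143 lower, and with array weights 247 higher and 440 lower. Normexp background correction gave 140 higher and 95 lower calls by the study's threshold, the reverse of the split with quantile normalization of the deposited signal. These normexp calls were 11.2% of MRAK transcripts, against 11.7% of all tested probes. An exact permutation test of 3 arrays against 3 cannot give a two-sided p under 0.1.

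Over the tested MRAK transcripts the median difference was -0.27 log2 units (quartiles -0.79 and 0.35), with 796 transcripts above 0 and 1307 below. The median over all tested probes was -0.17, and that over RefSeq mRNA probes was -0.12. With arrays aligned at the 75th percentile the medians of MRAK and of all probes were -0.554 and -0.399. The tested MRAK transcripts include the 365 that passed the filter through the 3-month arrays alone, of which 323 had a difference below 0. With no filter on dim probes the medians were -0.022 for MRAK transcripts and -0.0645 for all probes, so the lower median of MRAK transcripts was not seen there. In 822 MRAK transcripts (39.1%) the arrays of both ages did not overlap, 343 higher and 479 lower at 12 months. The share over all tested probes was 39.1%, with 16.5% higher and 22.6% lower.

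**Figure D2:**
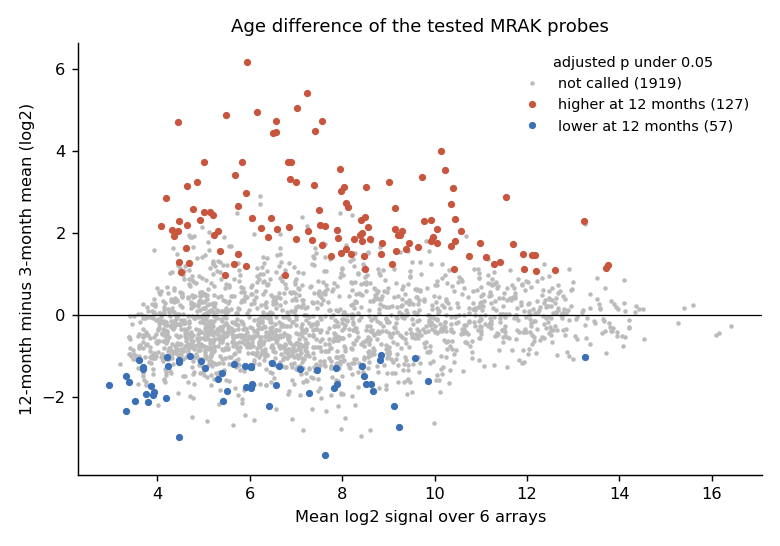
Difference between the ages (y axis, log2 signal at 12 months minus 3 months) against mean log2 signal over 6 arrays (x axis) for the 2103 tested MRAK probes, with those at an adjusted p under 0.05 coloured by direction. Of the 184 coloured transcripts, 29 lie in the brightest of 5 bins, above a mean of 9.97.

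Detection differed between the directions. Of the 127 higher transcripts, 99 were above background on all 6 arrays and 4 on no 3-month array. Of the 57 lower ones, 21 were above background on all 6 arrays and 26 on no 12-month array. Among the 365 transcripts detected on all 3-month arrays and no 12-month array, 99 were lower at the study's threshold and 0 were higher, which the way they passed the filter makes likely. Restricted to the 1339 transcripts above background on all arrays, the study's threshold gave 176 higher (13.1%) and 146 lower (10.9%). Their median difference was -0.12. RefSeq mRNA probes above background on all arrays, not matched in brightness, split the same way. Of these 10.5% were higher and 7.63% lower, with a median difference of -0.075.

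The 8 largest rises among transcripts detected on all 6 arrays exceeded 13-fold. MRAK032565 had log2 signals of 4.65, 4.86 and 4.04 at 3 months and 9.85, 9.99 and 9.98 at 12 months. It rose by 5.43 ± 0.28 on the log2 scale (SE), a 43-fold difference (adjusted p = 0.00142, limma). The signals before normalization were 13.8, 26.6 and 19.6 scanner units at 3 months and 1900, 1740 and 952 at 12 months, so the ages were apart before normalization too. MRAK038217 had 5.88, 6.07 and 3.64 at 3 months and 9.65, 10.32 and 9.86 at 12 months, a rise of 4.75 ± 0.65 (SE, adjusted p = 0.0129, limma). MRAK087227 had 4.41, 4.85 and 3.32 at 3 months and 9.38, 7.40 and 10.02 at 12 months, a rise of 4.74 ± 0.73 (SE, adjusted p = 0.0176, limma). In these last 2 transcripts 1 array stood below the others of its age, 3-month replicate 3 and 12-month replicate 2, yet the ages stayed more than 2 log2 units apart.

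MRAK003956 had log2 signals of 4.41, 6.04 and 5.07 at 3 months and 9.54, 8.88 and 10.56 at 12 months, and it rose 22.4-fold (adjusted p = 0.0101, limma). MRAK033904 had 3.81, 4.90 and 4.33 at 3 months and 8.57, 9.46 and 8.38 at 12 months, and it rose 22-fold (adjusted p = 0.0043, limma). Both lay below the MRAK median of 7.01 on every young array and above it on every old one. MRAK165837 was the brightest of the 8, with 8.86, 8.41 and 7.13 at 3 months and 12.31, 11.57 and 12.50 at 12 months. It rose 16-fold (adjusted p = 0.01, limma), and its scanner signals of 144, 298 and 153 at 3 months and 9240, 5300 and 4720 at 12 months were also apart. MRAK162515 and MRAK141435 rose 13.4-fold and 13.3-fold (adjusted p = 0.01 and 0.00566, limma), from log2 signals of 4.47 to 5.56 at 3 months to 7.98 to 9.55 at 12 months.

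With normexp background correction, which adds an offset that compresses dim signals, all 8 rises stayed positive but were smaller. MRAK032565 then rose by 3.49, MRAK038217 by 3.28, MRAK087227 by 2.75, MRAK003956 by 3.01, MRAK033904 by 2.50, MRAK162515 by 2.29 and MRAK141435 by 2.23, all with an adjusted p under 0.05 (limma). MRAK165837, which lay above the MRAK median of 7.01 on all 6 arrays, rose by 3.63 (adjusted p = 0.00655, limma). MRAK032565, MRAK003956, MRAK033904 and MRAK141435 were called whichever array was left out. MRAK087227 was called in 2 of the 6 such fits.

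The 8 largest of the 21 called falls among transcripts detected on all 6 arrays ranged from 3.25-fold to 10.8-fold. MRAK012222 had log2 signals of 10.62, 8.97 and 8.42 at 3 months and 5.79, 5.69 and 6.22 at 12 months. It fell by 3.43 ± 0.56 on the log2 scale (SE, adjusted p = 0.0206, limma), and its scanner signals of 427, 442 and 376 at 3 months stood above the 94.9, 69.2 and 70.6 of the 12-month arrays. MRAK042870 had 10.19, 10.24 and 11.42 at 3 months and 7.36, 8.61 and 7.62 at 12 months, a fall of 6.74-fold (adjusted p = 0.0228, limma). Before normalization the ages overlapped in MRAK042870, with 326, 1130 and 3400 scanner units at 3 months and 319, 613 and 194 at 12 months.

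MRAK018768 had the smallest SE of these 8 falls, with 10.56, 10.07 and 10.07 at 3 months and 7.73, 8.20 and 8.07 at 12 months, a 4.71-fold fall (adjusted p = 0.00904, limma). Its scanner signals were 412, 1010 and 1230 at 3 months and 417, 455 and 265 at 12 months. The signal of 3-month replicate 1 thus lay within the 12-month values, and the ages were apart only after normalization. The same held for MRAK080342, with 330, 575 and 689 scanner units at 3 months and 426, 359 and 184 at 12 months. After normalization it had log2 signals of 10.21, 9.33 and 9.27 at 3 months and 7.76, 7.89 and 7.55 at 12 months, a 3.66-fold fall (adjusted p = 0.0227, limma).

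The other falls of these 8 were MRAK038201, MRAK020503, MRAK020071 and MRAK017175. Their differences were -1.91, -1.80, -1.71 and -1.70 on the log2 scale (adjusted p = 0.0487, 0.044, 0.0232 and 0.0363, limma). The highest 12-month value and the lowest 3-month value were 6.69 and 7.69 in MRAK038201, 7.24 and 8.09 in MRAK020503, 6.25 and 7.33 in MRAK020071, and 8.25 and 9.21 in MRAK017175. In each the gap between the ages was about 1 log2 unit. Before normalization 6 of the 8 falls overlapped between the ages, all but MRAK012222 and MRAK038201, whereas none of the 8 rises did. MRAK038201 lost its call when any 1 array was left out, MRAK020071 and MRAK017175 kept theirs in 1 of the 6 fits, MRAK042870, MRAK080342 and MRAK020503 in 2, MRAK012222 in 4 and MRAK018768 in 5. All 8 stayed lower at 12 months under every alternative run.

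**Figure D3:**
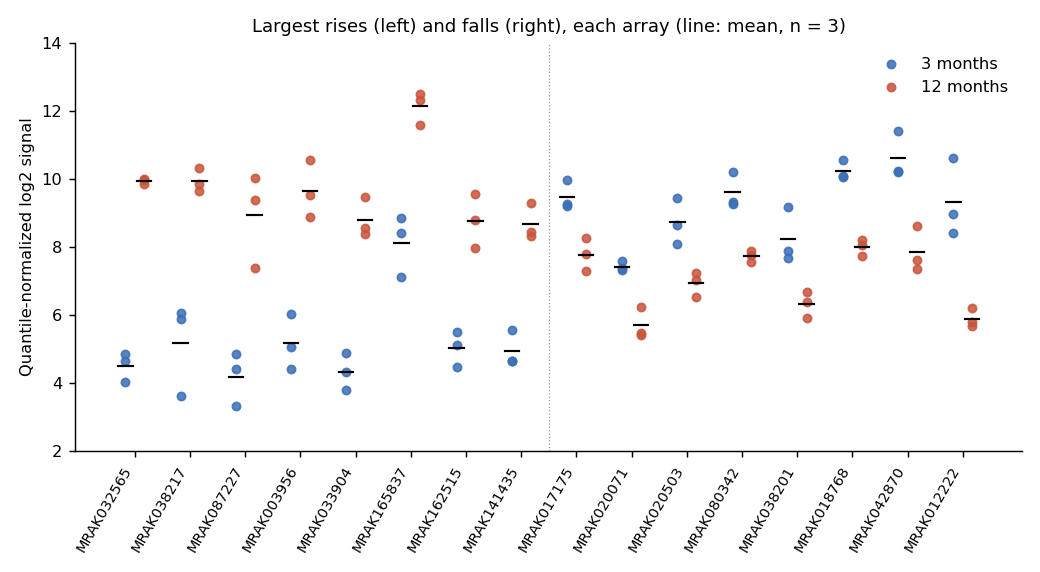
Normalized log2 signal (y axis) of the MRAK transcripts with the largest rises and falls (x axis), with a point for each array coloured by age. In each transcript shown the 3 arrays of 12 months and the 3 of 3 months do not overlap, as the rule for naming them required.

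A further 4 transcripts rose from a signal below the detection limit on every 3-month array to one above it on all 12-month arrays. They passed the filter through the 12-month arrays alone and so had to be brighter there, and their p-values are no independent evidence of direction. Their folds are lower bounds, computed as the 12-month mean against the mean, over the 3-month arrays, of the higher of the detection limit and the probe's own signal. MRAK145038 had log2 signals of 2.56, 3.15 and 2.86 at 3 months and 8.43, 9.45 and 9.20 at 12 months, so it was at least 62.2-fold higher (adjusted p = 0.00142, limma). Its scanner signals were 2.65, 7.63 and 6.86 at 3 months and 714, 1180 and 577 at 12 months. MRAK080198 had 2.10, 2.09 and 2.08 at 3 months and 6.44, 6.88 and 7.09 at 12 months, at least 13.8-fold higher (adjusted p = 0.00142, limma). MRAK079838 and MRAK053958 were at least 8.31-fold and 5.71-fold higher (adjusted p = 0.0043 and 0.0138, limma). With normexp correction the differences were 3.06, 1.54, 0.98 and 0.73 on the log2 scale, and that of MRAK053958 no longer passed (adjusted p = 0.051, limma).

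The opposite pattern, signal above background on all 3-month arrays and none at 12 months, held for 26 called falls, and the bounds of the 4 largest were small. These too passed the filter through 1 age alone, so their p-values are no independent evidence of direction. MRAK044827 had 6.62, 5.43 and 5.86 at 3 months and 2.20, 4.59 and 2.12 at 12 months, at least 2.25-fold lower (adjusted p = 0.0495, limma). MRAK014595 was at least 1.04-fold lower (adjusted p = 0.043, limma). MRAK016164 and MRAK044306 passed the test (adjusted p = 0.0137 and 0.0355, limma), but their 3-month means lay below the mean detection limit of the 12-month arrays, so no fold is given. With normexp correction none of these 4 falls passed, and their differences were -0.76, -0.43, -0.40 and -0.27. For MRAK014595, MRAK016164 and MRAK044306 lower expression and the higher detection limit of the 12-month arrays cannot be told apart. In MRAK044827 every 3-month signal lay above the 12-month limits of 4.26 to 5.13, and the cause of its fall was not tested.

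Some calls held whichever array was left out. Of the 127 higher transcripts, 21 passed in all 6 such fits and 16 in none, and of the 57 lower ones 1 passed in all and 12 in none. Every called transcript kept its sign in the 6 fits. Among these 21, chosen after their values were seen, MRAK162511 had 3.75, 4.49 and 5.25 at 3 months and 9.11, 9.75 and 9.75 at 12 months, and it was above background on 2 of the 3 young arrays (adjusted p = 0.00345, limma). MRAK045612 was bright at both ages, with 9.97, 10.29 and 10.07 at 3 months and 12.67, 13.30 and 12.97 at 12 months. It rose by 2.87 ± 0.26 on the log2 scale (SE, adjusted p = 0.0043, limma), far from the detection limit. MRAK035295 had very even arrays, with 3.91, 4.23 and 3.82 at 3 months and 6.40, 6.43 and 6.45 at 12 months. The others of the 21 beyond those described above differed by 2.28 to 4.96 and were MRAK042965, MRAK047991, MRAK076522, MRAK018157, MRAK136875, MRAK047936, MRAK053743, MRAK165063, MRAK142499, MRAK049961 and MRAK034756. The single fall was MRAK144357, which passed the filter through the 3-month arrays alone, with 5.21, 5.43 and 5.01 at 3 months and 3.10, 3.13 and 3.26 at 12 months. It lay below the detection limit on every 12-month array, and it was at least 1.33-fold lower (adjusted p = 0.00772, limma), with the same limit on its p as the transcripts detected at 1 age.

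Of the 421 transcripts with a mean log2 signal above 9.97, 29 (6.89%) were called. The share was 5.61% for RefSeq mRNA probes in the same range and 8.37% for all tested probes. The brightest of the 29, chosen after their values were seen, included MRAK159688. It had 11.71, 12.32 and 12.29 at 3 months and 15.11, 14.45 and 13.60 at 12 months, a difference of 2.28 (adjusted p = 0.0274, limma). MRAK149022 had 13.45, 13.35 and 12.67 at 3 months and 14.45, 14.21 and 14.44 at 12 months, a difference of 1.21 (adjusted p = 0.0495, limma). MRAK082795 was the one lower transcript among them, with 13.75, 13.68 and 13.91 at 3 months and 12.70, 12.87 and 12.66 at 12 months, and it fell by 1.04 on the log2 scale (adjusted p = 0.0377, limma). MRAK159688 passed in 2 and MRAK082795 in 1 of the fits that left out an array, and MRAK149022 in none.

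A transcript that was not called was seldom shown to be stable. The 95% interval of the difference (limma) lay within a 2-fold change either way for 392 of the 2103 tested MRAK transcripts (18.6%) and for 2964 of 12286 RefSeq mRNA probes (24.1%). The median distance from the difference to the end of its interval was 0.835 log2 units for MRAK transcripts and 0.782 for RefSeq mRNA probes. It lay wholly beyond a 2-fold change for 100 MRAK transcripts, and for the other 1611 it reached across that limit.

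Since MRAK transcripts were dimmer than mRNAs, they were set beside RefSeq mRNA probes of like brightness, weighted over 20 bins of mean signal. At the study's threshold 24.9% of MRAK transcripts and 23.8% of the matched mRNA probes passed, a gap of 1.09 percentage points. The gap lay in the lower direction, with 14.2% against 12.2%, while the higher direction had 10.8% against 11.7%. At an adjusted p under 0.05 the shares were 8.75% and 8.98%. Brightness-matched mRNAs were thus called about as often as MRAK transcripts, and the gap at the study's threshold changed sign under some alternatives. The median difference was -0.27 in MRAK transcripts and -0.16 in matched mRNAs, and the SD within an age was 0.453 and 0.525. MRAK values are averages over 3 spots of a probe, while the 15321 mRNA probes had 15663 spots. The part of this unlike number of spots in the gaps was not tested. Among probes above background on all 6 arrays the medians were -0.12 and -0.04, and with no filter the MRAK median was above that of matched mRNAs by 0.0179. No test was run on these gaps, which describe these 6 arrays.

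**Figure D4:**
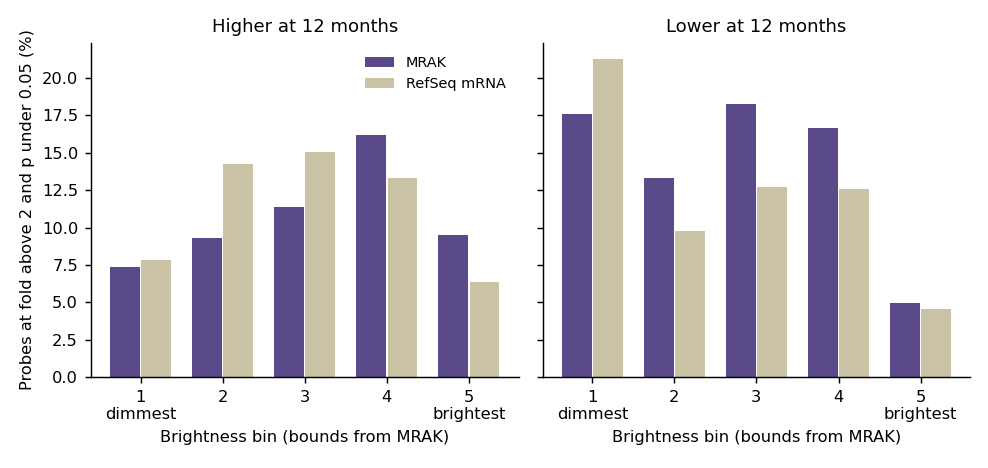
Share of tested probes past the study's threshold (y axis, percent), higher and lower at 12 months apart, in 5 bins of mean log2 signal (x axis) for MRAK and RefSeq mRNA probes. The MRAK share of lower probes exceeds the mRNA share in all bins but the dimmest, where it is 17.6% against 21.3%.

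The gap was uneven over the range of brightness. In 5 bins of equal MRAK number, bounded at log2 signals of 5, 6.31, 7.87 and 9.97, the lower share of MRAK transcripts was 17.6%, 13.3%, 18.3%, 16.7% and 4.99% from the dimmest to the brightest. That of RefSeq mRNA probes in the same bins was 21.3%, 9.78%, 12.7%, 12.6% and 4.58%. The higher share of MRAK transcripts was 7.36%, 9.29%, 11.4%, 16.2% and 9.5% from the dimmest to the brightest bin. That of mRNA probes was 7.82%, 14.3%, 15.1%, 13.3% and 6.37%. Dim MRAK transcripts above the first bin were thus called lower more often, and higher less often, than mRNAs of like signal, up to a log2 signal of 7.87. In the fourth bin both shares were above those of mRNAs.

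The medians followed the same course. The median difference of MRAK transcripts was -0.45, -0.34, -0.44, -0.18 and 0.00 from the dimmest bin to the brightest, and that of RefSeq mRNA probes was -0.45, -0.09, -0.10, -0.10 and -0.09. The gap of the medians was 0.00 in the dimmest bin, -0.25 in the second bin and -0.34 in the third. With arrays aligned at the 75th percentile the gaps in these bins were -0.30 and -0.32, with normexp -0.11 and -0.24, and from the 4 arrays with the same name ending -0.16 and -0.20. The gap in these middle bins thus kept its direction under those alternatives. It was not computed by bin with no filter on dim probes or with a block of the 2 numbered replicate pairs. Under these the gap of the medians to matched mRNAs over all brightness was 0.0179 and 0.0106. In the brightest bin the gap was 0.10, with MRAK transcripts above mRNAs.

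**Figure D5:**
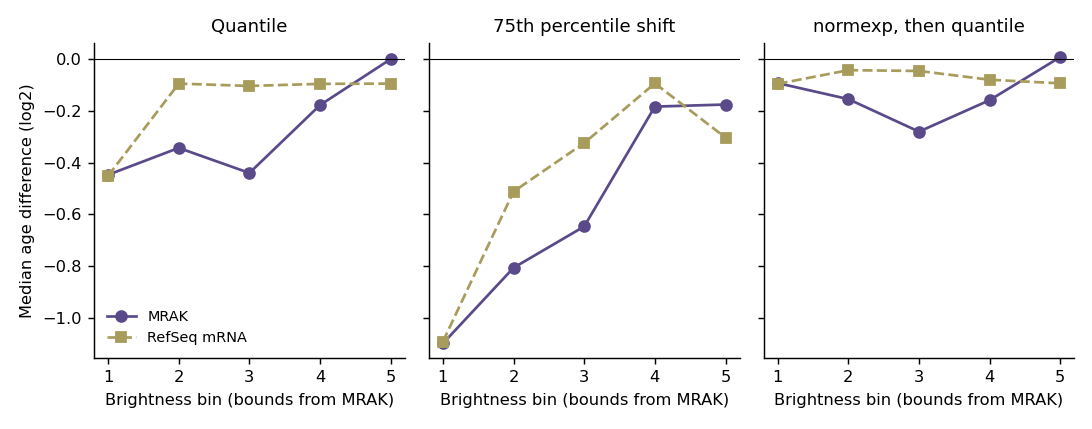
Median difference between the ages (y axis, log2 signal at 12 months minus 3 months) in 5 bins of mean log2 signal (x axis) for MRAK and RefSeq mRNA probes. The 2 lines meet at -0.45 in the dimmest bin, are farthest apart in the third at -0.44 and -0.10, and cross in the brightest.

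The number in a MRAK name, the sole other property the design gives, made little difference to the share called. In 5 blocks of names, with numbers from 2255 to 29887, 30009 to 54555, 75655 to 90394, 131636 to 144970 and 145005 to 172715, the share of tested transcripts past the study's threshold was 22%, 24.4%, 26.5%, 28.1% and 25.7%, against 22.0% of all tested probes. The share of names that could be tested was 64%, 54.7%, 57%, 61.1% and 60.9%. What the numbers stand for is not given in the sources used here, and these shares are a description.

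Islet hormone genes were bright, with the insulin gene Ins1 at log2 signals of 18.43 to 18.86 and the glucagon gene Gcg at 18.01 to 18.29 on the 6 arrays. Enzyme genes of acinar cells, the cells around the islets, reached similar signals, with Pnlip at 18.31 to 18.52. Some marker genes also differed between the ages, and their part in the MRAK differences was not tested. Of 7 tested nerve and Schwann cell genes, 3 fell (Mbp, Prph and Sox10, a myelin protein, a neuronal filament and a Schwann cell transcription factor), and 0 of 7 had a difference above 0. Their summed signal was 7270 to 12000 at 3 months and 3050 to 4230 at 12 months. Of 5 stellate and mesenchymal genes Pdgfrb, a growth factor receptor of these cells, rose, and the summed signal was 9730 to 17000 at 3 months and 25300 to 64900 at 12 months. The summed signal of 6 beta cell genes was 828000 to 969000 at 3 months and 1040000 to 1170000 at 12 months. Of these the glucose transporter gene Slc2a2 rose. Of 6 genes of other endocrine cells, the delta cell transcription factor gene Hhex rose, with a summed signal of 717000 to 788000 at 3 months and 909000 to 1000000 at 12 months.

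In the other lists no gene passed the adjusted test (limma). The summed signal of 10 acinar genes, which encode digestive enzymes, was 2330000 to 2990000 at 3 months and 2260000 to 3310000 at 12 months. That of 6 immune genes was 24700 to 70300 and 19900 to 72800, and that of 3 duct genes was 8360 to 16900 and 5640 to 20800. In these 3 lists the ages overlapped. The 5 endothelial genes had summed signals of 56400 to 73800 and 31400 to 53100. At the study's threshold 2 of them were lower and 1, Pecam1, was higher, with a difference of 1.23 (adjusted p = 0.124, limma). The 3 red blood cell genes had a median difference of -0.66, with 1 above 0. Their summed signals, 75700 to 117000 at 3 months and 41400 to 110000 at 12 months, overlapped.

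The list of the nuclear exosome, its adaptors and other RNA decay factors held 25 gene symbols, some of them older and newer symbols of the same gene. Of these 13 were tested, and their median difference was 0.28. Pabpn1, which binds poly(A) tails in the nucleus, rose by 2.52 ± 0.35 on the log2 scale (SE, adjusted p = 0.0129, limma), and it was the single gene of the list past the adjusted threshold. At the study's threshold 3 were higher and 1 was lower, against 10.1% and 11.9% of all tested probes. Their part in the MRAK differences was not tested.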

How the data were processed

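Per the file headers, the deposited scanner files hold spot intensity from Agilent Feature Extraction 11.0.1.1, background-subtracted but not normalized between arrays. The authors' own table of log2 values covers 12145 probes and 0 MRAK probes, so it was used only to check the scale. Its columns have medians of 9.41 to 9.48 and correlate at 0.9996 or more, array by array, with the quantile-normalized values. Per the study's supplement the authors had quantile normalized these log2 values, and their filter is not given in the sources used here. The header names an array design on build rn4, and no coordinates are given.

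For each probe the log2 intensity was averaged over its spots, leaving out those marked as outliers (204 to 231 of 10764 MRAK spots per array were marked) and quantile normalized over non-control probes. Probes well above background on at least 3 of 6 arrays were tested with limma 3.58.1 in R 4.3.3 (lmFit and eBayes, two-sided, no block), with Benjamini-Hochberg adjustment over 17941 probes. A probe counted as well above background on an array where at least 50% of its unmarked spots did. Of the MRAK probes kept, 3 had a missing value and were fitted on the others. No spot was saturated. The fit was checked on simulated data.

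Age came from the labels. The label of 12-month replicate 3 carries no number. Arrays have no read depth, and their number limits the precision. The p-values cover the spread between these arrays.

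Named transcripts were the 5 brightest, up to 8 largest rises and falls with an adjusted p under 0.05, no overlap of the ages and signal above background on all 6 arrays, and up to 4 of each above background at 1 age only. No MRAK name has more than 1 probe. The members and the lists were chosen with earlier results of these data known. Gene symbols came from RefSeq accessions, of which 14274 of 15321 matched. The alternatives were other scalings, background corrections, filters, variance models, blocks, arrays, tests and ways of matching brightness. The gap of the medians to matched mRNA probes was added after seeing the data.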

Additional observations from a re-analysis of the deposited data

How the results depend on the processing

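The count of 184 MRAK transcripts at an adjusted p under 0.05 (limma) moved by over 1.5 times under most alternatives. It was 318 with no filter on dim probes, 687 with array weights, where 12-month replicate 1 had a weight of 8.56, 482 at an adjusted p under 0.1, 50 with the methods' t-test after adjustment and 1 with the paired t-test named in the supplement. It was 27 to 247 when an array was left out and 0 with the 4 arrays of a shared name ending. The MRAK share was 8.86% with no filter, 32.7% with array weights and 22.9% at an adjusted p under 0.1. It was 2.38% with the methods' t-test and 0.0476% with the paired t-test. Over all tested probes these shares were 9.48%, 31.7%, 21.3%, 2.42% and 0.00558%. Same-numbered arrays did not deviate together over MRAK probes (r = 0, -0.287 and -0.056). These correlations run across probes and the third pair was set by elimination, so they cannot decide whether the arrays were paired. A replicate block of 3 pairs gave 14 calls (0.666%, against 0.541% of all tested probes), all higher, with 564 at an unadjusted p under 0.05 (limma). A block of the 2 numbered pairs gave 0, also over all tested probes, with 363 MRAK transcripts at an unadjusted p under 0.05 (limma). At the study's threshold that block gave 245 higher and 118 lower, together 17.3% of MRAK transcripts, against 15.5% of all tested probes. A block for the scan could not be fitted, since each age lies in 1 scan. The count of 524 at the study's threshold was 235 with normexp, 328 for probes above background on all arrays, 191 with the paired t-test and 401 to 617 with an array left out. With normexp, the all-array filter and the paired t-test the MRAK shares were 11.2%, 24.5% and 9.08%. Those of all tested probes were 11.7%, 20.3% and 8.66%. The median difference of -0.27 was -0.554 with the 75th percentile shift, -0.022 with no filter and -0.363 to -0.17 with an array left out.

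The gap of 1.09 percentage points to matched mRNA probes was 4.3 with the 75th percentile shift, -1.51 with no filter, -0.803 with array weights, -0.229 with the block of 2 pairs, -0.152 with the paired t-test and -1.22 to 1.79 with an array left out. The gap of the medians, -0.11, was 0.0179 with no filter, 0.0106 with the block of 2 pairs and -0.201 to -0.051 with an array left out. Among the brightest transcripts, none of them called, the difference changed sign to -0.198 in MRAK078618 with the 75th percentile shift, to -0.256 with that shift and -0.113 with array weights in MRAK147435 (-0.157 to 0.339 with an array left out), and to 0.053 with the block of 2 pairs in MRAK015982 (-0.714 to 0.098 with an array left out). For all of these the cause was not tested. Dim transcripts are limited by a detection limit that was higher on the 12-month arrays.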
